A study of Mus musculus with 20 samples.

Results

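Alveolar macrophages of miR-155 knockout mice were compared between cigarette smoke and air. The comparison rests on 10 libraries of the 20 in the series, 5 from mice that breathed smoke (KO smoke) and 5 from mice that breathed air (KO air), chosen by the column names of the deposited table. Every gene of that table, 13225 in all, was tested, and a positive value always means a higher level in smoke. The knockout mice were of the strain B6.Cg-Mir155tm1.1Rsky/J. Wild type mice (WT, strain C57BL/6) given the same 2 exposures, 5 mice each, make up the rest of the series and serve here for comparison. Exposure lasted 4 weeks in all 4 groups, and each library bears its own mouse code. The cells had been sorted as CD45+SiglecF+CD11c+, and polyadenylated RNA was sequenced. No label gives the age or sex of the mice, the smoke dose, or which part of the Mir155 locus the knockout lacks. Knockout and WT are separate strains, so the allele and other strain differences cannot be told apart.

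Alveolar macrophages sit in the airspaces, where they take up inhaled particles and recycle surfactant lipid. Their identity depends on GM-CSF and on the lipid sensor PPARγ, and their lysosomes digest what they engulf. MicroRNA-155 is a short RNA that is induced in macrophages by inflammatory signals and lowers the mRNA of its targets, which include inhibitors of cytokine signalling. It is cut from the long transcript Mir155hg. The mature microRNA is shown because it is what the knockout mice are labelled as lacking, with its seed (bases 2 to 8, which pair with targets) in capitals. RefSeq places it on the plus strand of chromosome 16, at chr16:84714143-84714165 of build GRCm38.p6.
mmu-miR-155-5p: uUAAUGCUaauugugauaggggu

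The host transcript Mir155hg was close to absent, and its level did not differ detectably between the exposures. KO air libraries held 25 reads of it in all and KO smoke libraries 8, and its log2 change was -0.43 ± 1.18 (adjusted p = 0.868). Because no label says which part was deleted, the reads are no check of the genotype.

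Markers of the labelled cell type were expressed, though several of them changed with smoke. Among the sort markers, Itgax (CD11c) stood at 1954, 2001, 1916, 1786 and 1825 CPM in air and 2166, 1884, 2038, 1997 and 1785 CPM in smoke, in the order of mice IIIa5, IIIb1, IIIb2, IIIb3 and IIIb4 for air and IVa2, IVa4, IVa5, IVb2 and IVb4 for smoke, which is used throughout. CPM are reads per 1000000 reads of the library. The groups overlapped, and the change of 0.06 ± 0.06 (SE, 5 mice a group, as for every log2 change here) was not called (adjusted p = 0.616). Siglecf, which encodes the other sort antigen, was at 397, 606, 501, 473 and 476 CPM in air and 269, 197, 273, 207 and 168 CPM in smoke. All 5 smoke values lay below all 5 air values, and Siglecf fell by 1.15 ± 0.13 (adjusted p = 1.41e-07). Ptprc (CD45) fell by 0.30 ± 0.08 (adjusted p = 0.00637). Mrc1, Chil3 and Pparg, other genes of resident alveolar macrophages, had changes of -0.04, 0.16 and -0.07 on the log2 scale and were not called. Further markers of these cells were called in both directions. Car4, Fabp5 and Marco were among those higher, and Ear1, Ear2 and Krt79 among those lower.

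Libraries differed in how many genes they detected. The 10 libraries held 6885680 to 11952088 reads. KO air mice IIIb2, IIIb3 and IIIb4 had 1645, 1524 and 1451 genes without a read, against 392 and 950 in the other KO air mice and 346 to 1224 in KO smoke. They held 6885680 to 8074431 reads, fewer than the other 2 KO air mice (10293476 and 11952088), while KO smoke libraries held 7336133 to 10898340, and the part of either difference in the results was not tested. Many counts and genes are therefore also given from a fit without these 3 mice, which leaves 2 KO air mice, taken to vary like the other groups.

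Smoke changed 2051 genes in the knockout cells at an adjusted p under 0.05 (limma, Benjamini-Hochberg over all genes), which is 15.5% of those tested. Of these, 933 rose (7.05% of the genes tested) and 1118 fell (8.45%). The balance turned with the scaling, being 1026 higher and 957 lower after median centring and 1040 and 888 after quantile normalization. Changes of at least 2-fold numbered 316 upward and 150 downward, while 1144 of the called genes (55.8%) changed less than 1.5-fold. In 1307 genes (9.88%) the ranges of the smoke and the air mice were apart, with smoke higher in 601 and lower in 706. The median change over all genes was -0.01 on the log2 scale. Without the 3 KO air mice 1220 genes were called (9.22%), 612 higher and 608 lower. All 2051 genes kept their sign in that fit and 1056 of them (51.5%) were called again, all in the same direction.

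**Figure D1:**
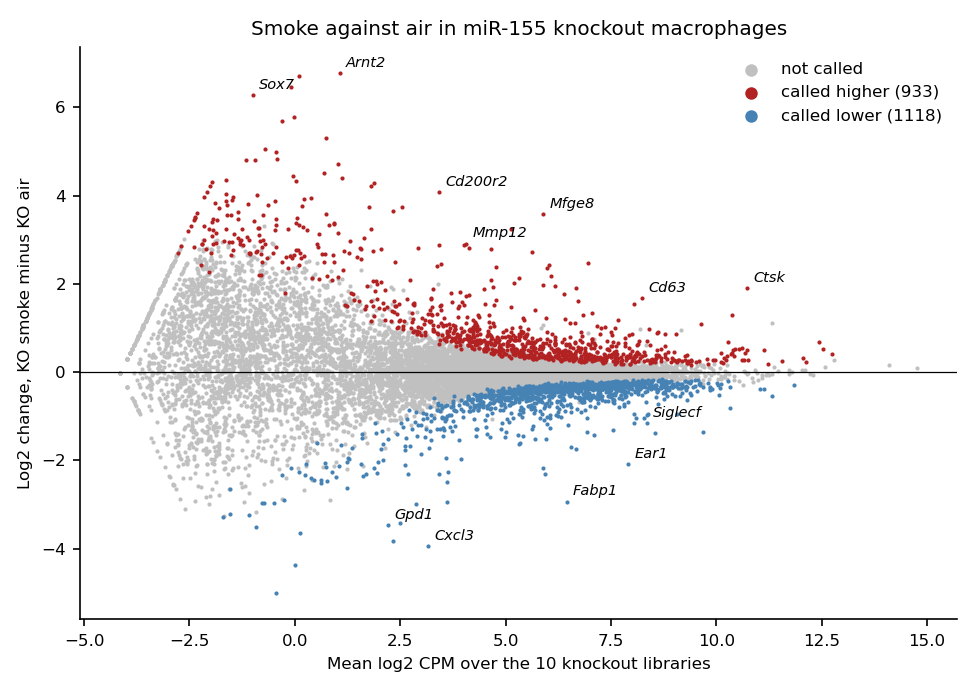
Log2 change between KO smoke and KO air (vertical axis) against mean log2 CPM over the 10 knockout libraries (horizontal axis) for 13225 genes, 1 point each, with called genes coloured. The 933 genes that rose and 1118 that fell lie at low and high levels alike, and the largest changes lie at low levels, where single reads weigh most.

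Among well measured genes (mean log2 CPM of 5 or more in either group, groups not overlapping), the largest increase was that of Cd200r2, an activating relative of the CD200 receptor. Its values were 4.27, 3.21, 0.674, 3.05 and 3.59 CPM in air and 57.7, 58.8, 36.3, 29.9 and 44.3 CPM in smoke. Lack of overlap was a condition for every gene of this paragraph and so was fixed in advance. The log2 change of Cd200r2 was 4.08 ± 0.36 (adjusted p = 2.21e-09), 16.9-fold. Mfge8, a secreted bridge between dying cells and phagocytes, measured 24.3, 22.4, 12.4, 15.7 and 13.6 CPM in air and 226, 249, 153, 132 and 322 CPM in smoke. It rose 12-fold, by 3.59 ± 0.25 (adjusted p = 2.83e-11). Ear6, of the eosinophil-associated ribonuclease family, rose 9.45-fold, as the ratio of geometric means, with 13.5 ± 7.83 CPM in air and 108 ± 15.3 CPM in smoke (arithmetic mean ± SD). The family holds near-identical copies among which reads may have been split. The matrix-degrading enzymes Mmp12 (macrophage elastase) and Mmp8 (a collagenase) rose 7.54-fold and 5.35-fold. For Mmp12 the values were 12.5, 3.5, 5.12, 5.66 and 6.32 CPM in air and 66.6, 82.5, 18.1, 34.3 and 59.6 CPM in smoke. The smoke mice ranged widely, with IVa5 lowest (adjusted p = 2.21e-06). Mmp8 stood at 29.7, 22.8, 31.1, 22.1 and 39.3 CPM in air and 160, 238, 95.6, 156 and 143 CPM in smoke (adjusted p = 7.78e-10). Ptgs1, the constitutive cyclooxygenase, had 8.62, 10.7, 3.5, 25.4 and 9.91 CPM in air and 78.8, 74.4, 46.6, 49.3 and 95.1 CPM in smoke. IIIb3 was the highest air mouse, and the log2 change was 2.78 ± 0.31 (adjusted p = 1.42e-07). Cd93, a surface lectin of myeloid cells, was measured at 91.4, 37.9, 24.4, 64 and 74.7 CPM in air and 321, 344, 226, 288 and 308 CPM in smoke, a log2 change of 2.48 ± 0.22 (adjusted p = 1.87e-09). The other genes of this group were Myrf (7.34-fold), a transcription factor best known from myelin-forming cells, Lrg1 (7.02-fold), a secreted glycoprotein, Zranb3 (6.61-fold), an annealing helicase at stalled replication forks, Tef (5.22-fold), a clock-output transcription factor, and Wfdc17 (5.11-fold), a small secreted protein of activated macrophages. All 12 were called without the 3 KO air mice, with log2 changes of 1.65 (Tef) to 3.55 (Cd200r2).

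**Figure D2:**
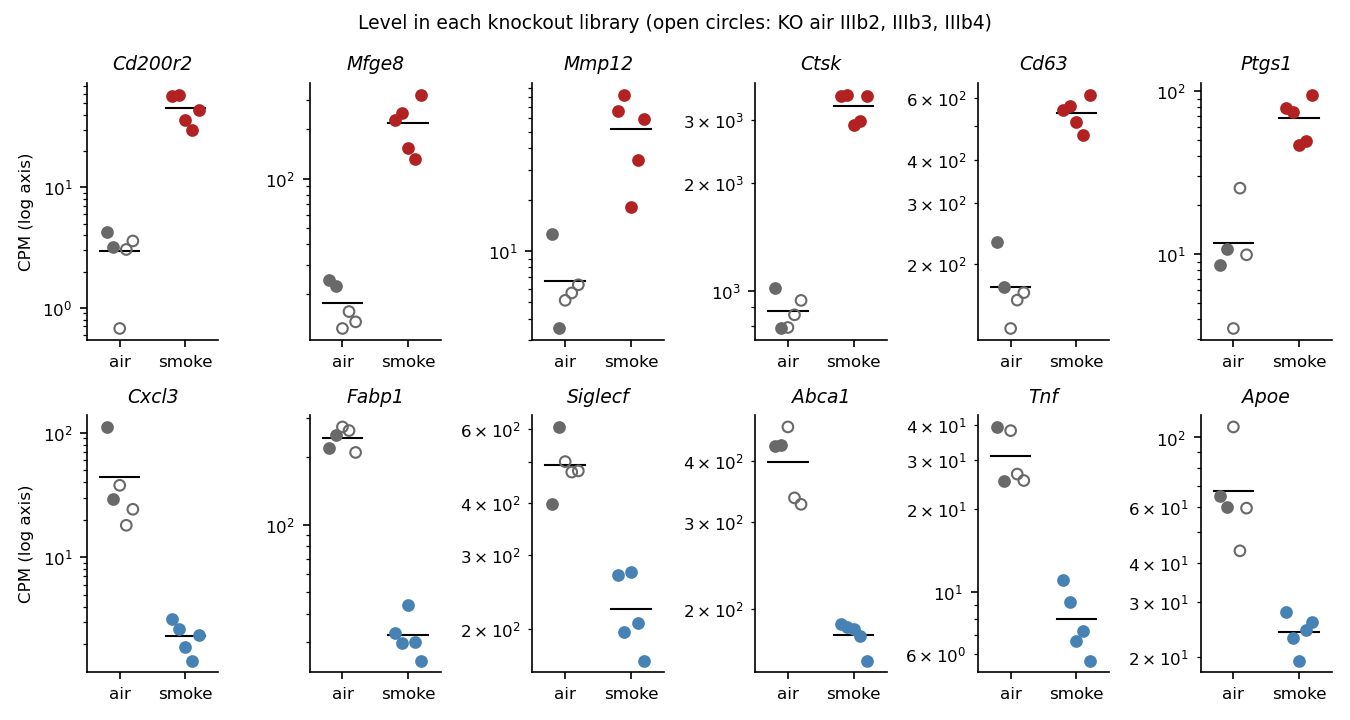
CPM on a log axis (vertical) in each of the 10 knockout libraries for 12 genes, with air at left and smoke at right of each panel; open circles mark KO air mice IIIb2, IIIb3 and IIIb4, and horizontal bars are group means. Cd200r2, Mfge8, Mmp12, Ctsk, Cd63 and Ptgs1 lie higher in every smoke mouse, and Cxcl3, Fabp1, Siglecf, Abca1, Tnf and Apoe lower in every smoke mouse.

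The largest decrease was that of the neutrophil-attracting chemokine Cxcl3, at 111, 29.1, 37.7, 18 and 24.2 CPM in air and 3.21, 2.63, 1.91, 1.47 and 2.38 CPM in smoke. The highest air value belonged to IIIa5. The genes of this paragraph, too, were chosen among those whose groups did not overlap, so their separation was fixed in advance. Cxcl3 fell by 3.94 ± 0.40 (adjusted p = 2.28e-08), 15.3-fold. Fabp1, a fatty acid binding protein, was at 219, 251, 273, 263 and 210 CPM in air and 32.8, 29.5, 44, 30 and 24.7 CPM in smoke. The spread within each group was small beside the difference. Fabp1 fell by 2.93 ± 0.12, with the smallest p of the genes named here (adjusted p = 3.12e-16). Acaa1b, a peroxisomal thiolase of fatty acid oxidation with a close copy, was at 108, 137, 129, 165 and 146 CPM in air and 24, 23.2, 46.3, 24.5 and 25.2 CPM in smoke. It fell 4.91-fold (adjusted p = 7.28e-12). Ear1, a ribonuclease typical of alveolar macrophages, was measured at 356, 535, 621, 514 and 481 CPM in air and 139, 79.5, 174, 127 and 90 CPM in smoke. Its direction was opposite to that of Ear6, and it fell 4.21-fold (adjusted p = 3.79e-09). Epcam, an adhesion molecule best known from epithelium, fell 3.11-fold, and Csf3r, the G-CSF receptor, fell 3.02-fold. Further decreases were those of Hr (4.47-fold), a nuclear corepressor, Cpne5 (3.35-fold), a calcium-dependent membrane-binding protein, Coro6 (3.24-fold), an actin regulator, Dnah11 (2.88-fold), a dynein heavy chain, Gpr155 (2.83-fold), a cholesterol sensor of the lysosome, and Adgrl3 (2.76-fold), an adhesion receptor. All 12 were called without the 3 KO air mice, with adjusted p values up to 0.032 (Dnah11).

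A few genes were almost without reads in air and appeared with smoke. Sox7, a transcription factor of the SoxF group, had no read in any KO air library and 267 over KO smoke. Its smoke values were 8.49, 8.11, 1.09, 2.02 and 10.1 CPM, with reads in all 5 mice. Against the 3 reads that a count of 0 allows over the group, Sox7 was at least 88.4-fold higher (adjusted p = 1.08e-07). Rai14 went from 0 to 81 reads, at least 26.8-fold, with none in IVa5 (adjusted p = 0.00148). Ddah1, which breaks down an inhibitor of nitric oxide synthases, had 3 reads in air and 129 in smoke, a ratio of 42.7 (95% counting interval 14.3 to 210). Hpse, the heparan sulfate-cleaving heparanase, had 3 and 112 reads, a ratio of 37.1 (12.4 to 183). Pamr1 had 1 and 82, a ratio of 81.5 (14.2 to 3257), and Nhlrc4 had 2 and 60, a ratio of 29.8 (7.9 to 252). Without the 3 KO air mice the call for Nhlrc4 was lost (adjusted p = 0.189), as it was without IVa4, IVb2 or IVb4 alone (adjusted p 0.0582 to 0.078), and the other 5 were called. Fitted log2 changes of genes with so few reads depend on the pseudocount, and with log2(CPM + 1) that of Sox7 was 2.51. No gene called lower had as few as 3 reads over the smoke group. Arnt2, a partner of the aryl hydrocarbon receptor family, belonged to a list of that receptor and its targets. Arnt2 was the 1 called member of 6, 16.7% and so near the 15.5% over all genes. It was at 1.26, 0.777, 0, 0 and 0 CPM in air and 30.9, 25.4, 14.2, 12.9 and 35.2 CPM in smoke, a log2 change of 6.78 ± 0.73 (adjusted p = 8.71e-08). Without the 3 KO air mice, where its reads were absent, the change was 4.41 (adjusted p = 3.43e-05).

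Many lysosomal genes rose. Of 58 measured genes of the lysosome, 28 rose and 2 fell (51.7% called, against 15.5% of all genes). Their median log2 change was 0.25 against -0.01 over all genes. Every list count below is to be read beside the shares over all genes, 7.05% higher and 8.45% lower. Proteases led, with 9 of 12 higher and none lower. Ctsk, a collagen-degrading cathepsin, was at 1021, 785, 790, 857 and 940 CPM in air and 3482, 3521, 2892, 2983 and 3492 CPM in smoke. The lowest smoke value was well above the highest air value, and Ctsk rose 3.73-fold (log2 1.90 ± 0.09, adjusted p = 1.49e-14). Lgmn (legumain) rose by 0.89 ± 0.07, Ctsd and Ctsl by 0.53 and 0.52, and Ctsb by 0.50 on the log2 scale, the call for Ctsd being lost under quantile normalization (adjusted p = 0.234). Glycan and sulfate hydrolases rose in 7 of 20, among them Naglu (0.68 ± 0.07). Of 12 genes for lipid hydrolysis and transport, a group that also held acid phosphatases, 6 rose. They included the acid phosphatase Acp5 (0.87 ± 0.10), Smpd1, the acid sphingomyelinase (0.74 ± 0.11), and the cholesterol carrier Npc2 (0.38 ± 0.06). Pla2g15, a lysosomal phospholipase, went the other way and fell by 0.55 ± 0.06. Among 14 membrane proteins 6 rose and 1, Laptm4a, fell by 0.32 ± 0.07. Cd63, a tetraspanin of late endosomes, was at 232, 172, 131, 158 and 166 CPM in air and 555, 568, 512, 471 and 614 CPM in smoke. No air mouse reached the lowest smoke mouse, and the change was 1.68 ± 0.11 (adjusted p = 8.85e-12). Gpnmb, a glycoprotein of phagocytes under lysosomal load, was at 1094, 767, 704, 818 and 915 CPM in air and 2182, 2123, 2058, 1982 and 2145 CPM in smoke, a change of 1.30 ± 0.09 (adjusted p = 9.41e-12). Without the 3 KO air mice 26 of the 58 rose and 2 fell.

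Genes of the proton pump that acidifies lysosomes were called in the same direction. Of 18 subunits and accessory proteins of the V-ATPase 9 rose and none fell, with a median of 0.24. Atp6v0d2, a membrane subunit prominent in macrophages, was at 1461, 1473, 1427, 1369 and 1384 CPM in air and 2017, 1999, 2012, 2086 and 2023 CPM in smoke. Both groups were tight and lay apart, a change of 0.51 ± 0.05 (adjusted p = 5.00e-08). Atp6v1a, the catalytic subunit, rose by 0.61 ± 0.07, Atp6v1c1 by 0.75 ± 0.09 and Atp6v0a1 by 0.71 ± 0.08. Of 14 transcription factors and nutrient sensors that act on lysosomes, 4 rose and 2 fell, and 3 and none did so without the 3 KO air mice. Fnip2, a partner of folliculin, rose by 0.76 ± 0.09 and the GTPase Rragc by 0.59 ± 0.08. Its relative Rragd was at 2.76, 0.0971, 0, 0.29 and 0 CPM in air and 4.93, 2.96, 5.45, 4.22 and 5.55 CPM in smoke. Reads were sparse in air, where IIIa5 was highest, and the change was 4.32 ± 0.72 (adjusted p = 7.74e-05; 2.84 and 0.0129 without the 3 KO air mice). Among the transcription factors, Tfeb had a change of 0.06 and was not called (adjusted p = 0.772). Tfe3 and Tfec had changes of -0.27 and -0.29, called with all mice (adjusted p = 0.0288 and 0.0264) and not without the 3 KO air mice (adjusted p = 0.134 and 0.61). The call for Tfe3 was also lost without IIIa5, IIIb4, IVa2 or IVa5 alone (adjusted p 0.0593 to 0.0997), and that for Tfec without IIIb3, IIIb4, IVa2 or IVa5 alone (adjusted p 0.0513 to 0.0834).

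Promoter sequences of these genes are shown because their members moved together. RefSeq promoters (build GRCm38.p6, 250 bases before to 50 after a start) were matched by symbol for 48 of the 58 lysosomal genes, 12 of the 18 V-ATPase genes and 9396 of all genes measured. TCACGTGA, the E-box-like element by which the factors TFEB and TFE3 recognise lysosomal genes, was searched on both strands. It stood in 5 of 55 lysosomal promoter windows (9.1%) and 3 of 16 V-ATPase windows (18.8%), against 217 of 12004 windows of all measured genes (1.8%). The core CACGTG, which lies inside it, stood in 13 lysosomal windows (23.6%), 4 V-ATPase windows (25.0%) and 10.1% of all windows. Of 22 lysosomal genes that rose and had a promoter, 3 held the full element, Ctsa, Ctsd and Gla, and Cln3 and Mcoln1, which were not called, held it too. A match is a run of letters, not a measured site. In the lines below capitals mark the element, and each sequence is on the strand of its gene, 5′ to 3′.
Ctsd (chr7:142387893-142387952, minus strand): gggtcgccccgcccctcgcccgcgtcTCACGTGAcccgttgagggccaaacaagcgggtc
Ctsa (chr2:164833734-164833772, plus strand): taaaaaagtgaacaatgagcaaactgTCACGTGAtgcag
Gla (chrX:134601200-134601255, minus strand): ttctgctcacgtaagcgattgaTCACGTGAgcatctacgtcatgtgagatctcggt
Atp6v1a (chr16:44139358-44139417, minus strand): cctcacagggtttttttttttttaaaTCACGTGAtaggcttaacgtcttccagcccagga

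Most markers of lipid-laden phagocytes rose as well, in a list that shares Cd63 and Gpnmb with the lysosomal list. Of 13 members 9 rose and 2 fell (84.6% called, against 15.5% of all genes), with a median of 0.53. Trem2, a lipid-sensing receptor, was at 15.1, 11.8, 15.6, 17 and 17.7 CPM in air and 50.7, 49.8, 51.4, 40.6 and 47.8 CPM in smoke. It rose 3.12-fold without overlap (adjusted p = 7.03e-10). Spp1 (osteopontin) was at 395, 436, 386, 363 and 378 CPM in air and 750, 888, 555, 696 and 735 CPM in smoke, a change of 0.87 ± 0.15 (adjusted p = 9.44e-05), and Igf1, a growth factor, rose by 0.67 ± 0.12. Apoe and Lpl were the members that fell. Apoe, which carries lipid out of macrophages, was at 65.3, 60.1, 108, 43.6 and 59.6 CPM in air and 27.8, 23, 19.5, 24.5 and 25.9 CPM in smoke. Every smoke mouse was below every air mouse, and Apoe fell by 1.42 ± 0.24 (adjusted p = 0.000106). Lpl, lipoprotein lipase, fell by 0.55 ± 0.11. Among 13 scavenger and phagocytic receptors 3 rose and 3 fell. Msr1, scavenger receptor A, was at 44.7, 35.8, 21.3, 30.9 and 30.5 CPM in air and 145, 159, 122, 142 and 151 CPM in smoke, a change of 2.17 ± 0.17 (adjusted p = 2.52e-10). Clec7a, the beta-glucan receptor, rose by 0.53 ± 0.07, while Clec4e (Mincle) fell by 1.27 ± 0.21 and the receptor tyrosine kinase Axl fell by 0.38 ± 0.07. Cd36, which takes up oxidised lipid, had a change of -0.35, called with all mice (adjusted p = 0.00614) and not without the 3 KO air mice (adjusted p = 0.0947).

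Called genes of cholesterol synthesis were all higher, and the export genes Abca1, Abcg1 and Apoe were lower. Of 20 enzymes of cholesterol synthesis 10 rose and none fell, with a median of 0.57, and 10 rose without the 3 KO air mice. Sqle, a rate-limiting enzyme of the sterol branch, was at 43.3, 35.6, 21.3, 25.6 and 22.9 CPM in air and 64.6, 69.9, 48.7, 69.5 and 43.2 CPM in smoke. The groups touched at IIIa5 and IVb4, every other smoke mouse was higher than every air mouse, and the change was 1.02 ± 0.16 (adjusted p = 3.86e-05; 0.57 and 0.0316 without the 3 KO air mice). Lss rose by 0.81 ± 0.12, Msmo1 by 0.75 ± 0.12, Dhcr7 by 0.64 ± 0.10 and Sc5d by 1.05 ± 0.22. Of 8 genes of sterol control and uptake 3 rose and none fell, among them the sterol carrier Stard4 by 0.85 ± 0.14 and the transcription factor Srebf2 by 0.45 ± 0.09. Of 12 genes in a list of cholesterol export, LXR and other lipid genes 5 fell and 1 rose, and 4 and none did so without the 3 KO air mice. Abca1, which loads cholesterol on apolipoprotein, was at 429, 430, 468, 336 and 326 CPM in air and 186, 184, 182, 176 and 157 CPM in smoke. With no overlap, it fell by 1.16 ± 0.11 (adjusted p = 9.79e-09). Abcg1 fell by 0.38 ± 0.06 and Mylip, a ubiquitin ligase induced by LXR, fell by 1.05 ± 0.13. Lpcat3, which remodels membrane lipids, and Nr1h3, which encodes LXRα, had changes of -0.25 and 0.34. Both calls (adjusted p = 0.0335 and 0.0429) were lost without the 3 KO air mice (adjusted p = 0.114 and 0.213). Lpcat3 was also lost without IIIb1, IIIb2, IVa2, IVa4, IVb2 or IVb4 alone (adjusted p 0.0507 to 0.114), and Nr1h3 without IIIb1, IIIb2, IIIb3, IVa2, IVa4, IVb2 or IVb4 alone (adjusted p 0.0501 to 0.135). The sterol element TCACNCCAC, in which N is any base, stood on either strand in 1 of 18 promoter windows of the synthesis genes (5.6%) and in 133 of all 12004 (1.1%). It is shown in capitals in the promoter of Hmgcs1, an early enzyme of the pathway, which rose by 0.40 ± 0.10 (adjusted p = 0.00415).
Hmgcs1 (chr13:119690188-119690248, plus strand): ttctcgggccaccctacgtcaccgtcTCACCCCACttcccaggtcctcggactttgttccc

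Called genes for binding and storing fatty acids were more often lower than higher. Of 13 such genes 6 fell and 3 rose (69.2% called, against 15.5% of all genes). Of all 31 members of the list, which also holds beta oxidation, 9 fell and 3 rose, and 7 and 2 did so without the 3 KO air mice. Besides Fabp1, the droplet protein Cidec fell by 0.94 ± 0.09 and the glycerol phosphate enzyme Gpd1 fell by 3.46 ± 0.51. For Gpd1 the values were 10.7, 19.1, 12.3, 22.1 and 15.5 CPM in air and 1.61, 0.438, 5.04, 0.367 and 3.06 CPM in smoke, with IVb2 the lowest smoke mouse and no overlap (adjusted p = 1.17e-05). Fabp5 rose by 0.98 ± 0.11 and the droplet coat protein Plin3 by 0.52 ± 0.09. Plin2, the main droplet coat protein, had a change of -0.35 (adjusted p = 0.00179; 0.0586 without the 3 KO air mice). Of 18 genes of beta oxidation 3 fell and none rose, 16.7% and so near the share over all genes. Ech1 fell by 0.32 ± 0.07, Hadha fell by 0.22 ± 0.06 and Acadvl fell by 0.31 ± 0.08, the last not called without the 3 KO air mice (adjusted p = 0.293).

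Many genes of cell division rose. Of 68 cell cycle genes 34 rose and 2 fell (52.9% called, against 15.5% of all genes), with a median of 0.52. For 24 genes of mitosis the count was 21 higher and none lower. Without the 3 KO air mice 32 rose and 2 fell. Mki67, the proliferation marker, was at 261, 233, 253, 263 and 275 CPM in air and 381, 423, 394, 532 and 385 CPM in smoke. Its change was 0.71 ± 0.08 (adjusted p = 1.51e-07), with no overlap. Birc5 (survivin) was at 26.5, 18.2, 26.8, 27.9 and 27.2 CPM in air and 44.3, 50.3, 54.3, 59.9 and 45.4 CPM in smoke, a change of 1.01 ± 0.13 (adjusted p = 9.01e-07). Hmmr, a spindle protein, rose by 1.29 ± 0.17, Top2a, which untangles DNA, by 0.92 ± 0.14, and the mitotic kinase Cdk1 by 0.86 ± 0.12. Among 22 replication genes 7 rose, with Rrm2, a subunit of ribonucleotide reductase, at 0.86 ± 0.12 and Rrm1 at 0.55 ± 0.08. Pcna, the replication clamp, had a change of 0.10 and was not called (adjusted p = 0.524), but was called without the 3 KO air mice (0.31, adjusted p = 0.0375). Among 12 genes of cyclins, their kinases and E2F factors 4 rose and 2 fell, Ccnd2 by 0.42 ± 0.10 and Cdk6 by 0.69 ± 0.08. The inhibitors Cdkn1a (p21) and Cdkn2d rose by 0.85 ± 0.11 and 1.25 ± 0.23. In bulk RNA a higher share of dividing cells and more such RNA per cell cannot be told apart, and the same holds for every gene below. TTTGAA, the cell cycle homology region, was searched on both strands and stood in 15 of 21 promoter windows of mitosis genes (71.4%) and in 12.2% of all windows. A pair of examples that rose is printed with the element in capitals, and in Ube2c it lies on the other strand.
Cdc20 (chr4:118437344-118437387, minus strand): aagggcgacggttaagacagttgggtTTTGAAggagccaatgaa
Ube2c (chr2:164769874-164769928, plus strand): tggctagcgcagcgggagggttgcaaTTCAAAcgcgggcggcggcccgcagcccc

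**Figure D3:**
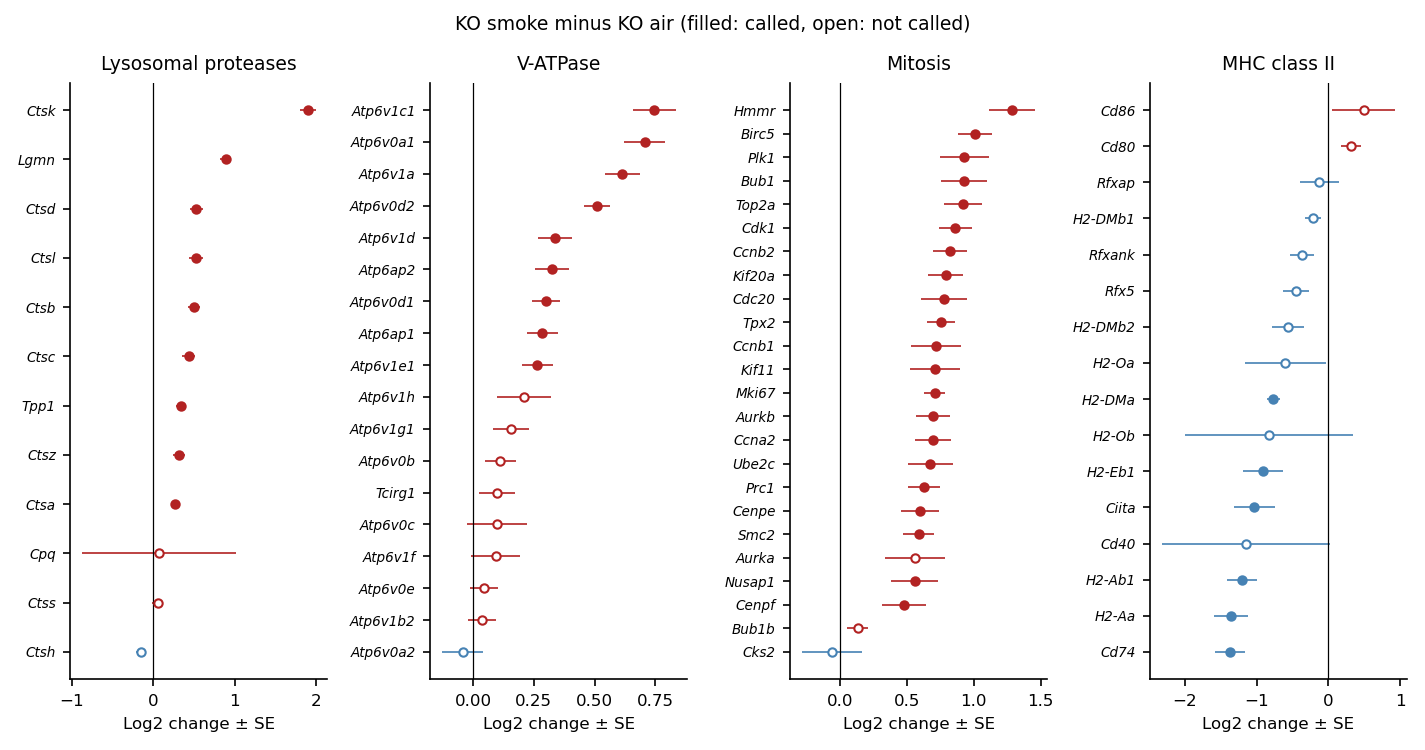
Log2 change between KO smoke and KO air (horizontal axis, bars are 1 SE) for the measured members of 4 gene lists, 1 point per gene, filled where called. Lysosomal proteases, V-ATPase subunits and mitosis genes lie mostly right of 0, and MHC class II genes left of 0 where called.

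Several genes that present antigen to helper T cells fell. Of 16 MHC class II genes 6 fell and none rose (37.5% called, against 15.5% of all genes), with a median of -0.68. Without the 3 KO air mice 4 fell and the median was -0.38. H2-Aa, the alpha chain of I-A, was at 169, 268, 357, 142 and 121 CPM in air and 111, 66.5, 107, 62.1 and 52.4 CPM in smoke. IIIb2 was the highest air mouse, IVa2 and IVa5 the highest smoke mice, and the groups lay just apart. H2-Aa fell by 1.35 ± 0.24 (adjusted p = 0.000144). Cd74, the invariant chain, was at 568, 799, 996, 374 and 481 CPM in air and 297, 184, 314, 220 and 187 CPM in smoke. It also lay lower in every smoke mouse and fell by 1.37 ± 0.21 (adjusted p = 2.29e-05). H2-Ab1 fell by 1.20 ± 0.21 and H2-DMa, a peptide loader, fell by 0.77 ± 0.09. H2-Eb1 was at 54, 93.8, 132, 52.3 and 48.2 CPM in air and 51.5, 33.7, 50.7, 26 and 30.9 CPM in smoke, where IVa2 and IVa5 overlapped the air mice. Its change of -0.91 ± 0.28 was called with all mice (adjusted p = 0.0224) and not without the 3 KO air mice (adjusted p = 0.0843), and likewise for Ciita, the master activator of these genes (-1.03 ± 0.29, adjusted p = 0.0123 and 0.178). The call for H2-Eb1 was also lost without IIIb1, IIIb2, IVa4, IVb2 or IVb4 alone (adjusted p 0.0504 to 0.087). Of 17 class I genes, which present antigen to killer T cells, 6 fell and 1 rose (41.2% called). Without the 3 KO air mice 3 fell and none rose. H2-Q6 fell by 1.11 ± 0.25 and H2-Q7 fell by 1.29 ± 0.29, near-identical genes among which reads may have been split, and H2-K1 fell by 0.24 ± 0.07, a call lost without IVb4 (adjusted p = 0.0647). CCAAT, on either strand the Y box of class II promoters, stood in 7 of 8 windows of class II chains (87.5%) and in 38.1% of all windows. It is capitalised in H2-Aa, where it lies on the other strand, and in H2-Eb1, which holds it once on each strand.
H2-Aa (chr17:34287841-34287897, minus strand): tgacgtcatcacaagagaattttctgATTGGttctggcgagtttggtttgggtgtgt
H2-Eb1 (chr17:34305782-34305838, plus strand): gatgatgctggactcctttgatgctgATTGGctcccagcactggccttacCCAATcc

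Among cytokine, receptor and NF-kB genes more were called lower than higher, and many were not called. Of 36 cytokine genes and receptors 11 fell and 4 rose (41.7% called, against 15.5% of all genes). Tnf was at 39.5, 25.3, 38.3, 26.7 and 25.3 CPM in air and 11.1, 9.2, 6.68, 7.25 and 5.66 CPM in smoke. All smoke mice lay below all air mice, and Tnf fell by 1.96 ± 0.21 (adjusted p = 4.67e-08). Il1rn, the antagonist of interleukin 1, was at 246, 264, 264, 240 and 256 CPM in air and 192, 193, 177, 168 and 159 CPM in smoke. Both groups were tight, and it fell by 0.52 ± 0.07 (adjusted p = 9.51e-06). Pdgfb, a growth factor of fibroblasts, fell by 3.65 ± 0.65. Among receptors, Il10ra fell by 0.69 ± 0.09, Il6ra fell by 0.60 ± 0.09 and Csf1r fell by 0.41 ± 0.10. Il1b had a change of -1.06 and was not called (adjusted p = 0.136), but was called without IIIb1 (-1.4, adjusted p = 0.0442). Csf1, a growth factor for macrophages, rose by 3.36 ± 0.88 (adjusted p = 0.00813), a call lost without the 3 KO air mice (adjusted p = 0.236).

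Chemokine genes were called in different directions in the 2 families. Of 7 CXC chemokines Cxcl3 and Cxcl2 fell. Cxcl2, its close relative, fell by 2.30 ± 0.34 (adjusted p = 1.40e-05). Of 10 CC chemokines 3 rose. Ccl6 was at 5313, 4597, 3739, 4488 and 3842 CPM in air and 7172, 7308, 6881, 6398 and 7282 CPM in smoke, a change of 0.68 ± 0.09 (adjusted p = 3.39e-06), and Ccl22 rose by 1.24 ± 0.17. Ccl2, the monocyte attractant, went from 4 reads to 64, all of the air reads from IIIa5 (log2 change 3.79 ± 0.80, adjusted p = 0.00109; 0.0839 with voom weights). Of 14 receptors 6 fell and 2 rose, and 2 fell and 2 rose without the 3 KO air mice. The complement anaphylatoxin receptor C5ar1 fell by 1.31 ± 0.11 and the formyl peptide receptor Fpr2 fell by 0.80 ± 0.08. C3ar1 was at 0.586, 0, 0, 3.92 and 2.85 CPM in air and 10.8, 11.3, 6.95, 7.98 and 14.7 CPM in smoke. IIIb1 and IIIb2 had no read, every smoke mouse was higher than every air mouse, and the change was 4.41 ± 0.96 (adjusted p = 0.00155). Cxcr2 rose by 1.79 ± 0.30. Ccr2 had a change of -1.16, called with all mice (adjusted p = 0.0144) and not without the 3 KO air mice (adjusted p = 0.112). Without IVa5 its change was -0.92 (adjusted p = 0.0517).

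Of 21 genes of NF-kB and its feedback loop 10 fell and none rose (47.6% called, against 15.5% of all genes), with a median of -0.37. Tnfaip3 (A20) fell by 0.97 ± 0.18, Nfkbie fell by 0.76 ± 0.18, Nfkbia fell by 0.67 ± 0.14 and the subunit Nfkb1 fell by 0.38 ± 0.08. Pattern receptors fell in 4 of 19 (21.1% called), of which Tlr5 fell by 0.84 ± 0.13 and Cd14 fell by 0.66 ± 0.10. Under quantile normalization 2 pattern receptors rose and 2 fell, and 1 rose and 3 fell without the 3 KO air mice. Of 9 inflammasome genes 5 fell and 1 rose, and 3 and none did so without those mice. Txnip, which also restrains glucose uptake, fell by 0.81 ± 0.09, the sensor Nlrp3 fell by 0.74 ± 0.12 and Nlrc4 fell by 0.49 ± 0.08, while Casp4 rose by 0.66 ± 0.20 (adjusted p = 0.0239; 0.655 without those mice), a call also lost without IIIb3, IIIb4 or IVb2 alone (adjusted p 0.0635 to 0.0897). Immediate early genes, which respond within minutes to handling and stimulation, fell in 6 of 18, of which Ier5 fell by 0.54 ± 0.09 and Zfp36 fell by 0.62 ± 0.12, and 3 fell without the 3 KO air mice. KO air mouse IIIa5 stood highest in several of these lists. Its summed level of the NF-kB list was 1731 CPM, beside 1270 to 1444 in the other air mice and 1070 to 1146 in smoke, and its sums of immediate early genes (2371 CPM, others 1559 to 1942) and of heat shock chaperones (7514 CPM, others 3701 to 5023) were also the highest. Without IIIa5, 8 of the NF-kB genes, 7 of the immediate early genes and 9 of the cytokine genes and receptors fell, and none, 1 and 4 rose. Of 29 interferon-stimulated genes 2 rose and 1 fell (10.3% called, below the 15.5% over all genes). Without the 3 KO air mice 1 rose and 2 fell. Ifitm3, an antiviral membrane protein, rose by 3.45 ± 0.92, from 0 to 32 reads, a call lost with voom weights (adjusted p = 0.0681), and Irf1 fell by 0.77 ± 0.13.

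**Figure D4:**
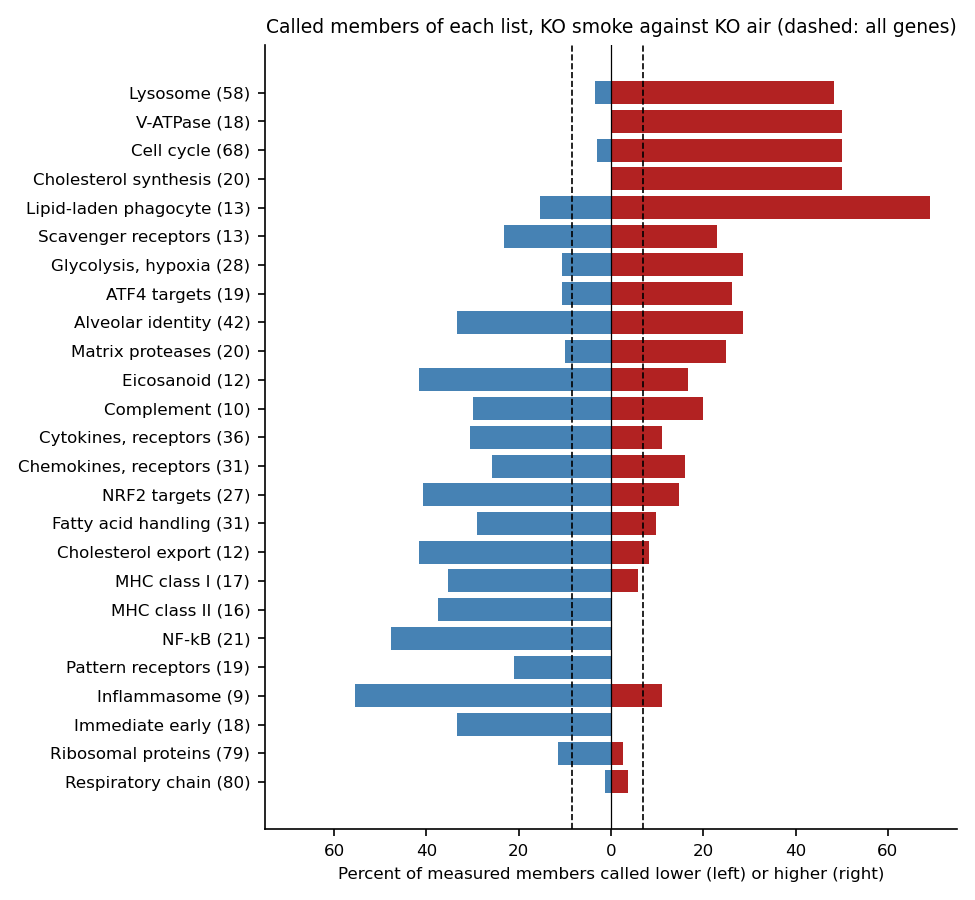
Percent of measured members called higher (right) and lower (left) in KO smoke against KO air for 25 gene lists, with the number measured beside each name; dashed lines mark 7.05% higher and 8.45% lower, the shares over all 13225 genes. Lysosome, V-ATPase, cell cycle, cholesterol synthesis and lipid-laden phagocyte lists extend right, and NF-kB, MHC class II and inflammasome lists left. The bar named cholesterol export also covers LXR and other lipid genes. Those named for NRF2 and ATF4 targets also cover the factors themselves, and the NRF2 bar further antioxidant genes.

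Complement and lipid mediator genes held some of the larger single changes. Of 10 complement genes 3 fell and 2, Cd93 and C4b, rose. Cfp (properdin) fell by 0.85 ± 0.09, Cfb fell by 1.68 ± 0.30 and C3, the central component, fell by 0.61 ± 0.15, while C4b rose by 2.79 ± 0.66. Without IIIa5 the change of C3 was -0.40 (adjusted p = 0.0143), and without IIIb3 that of C4b was 1.81 (adjusted p = 0.00173). The C1q chains were near the detection limit: C1qa, C1qb and C1qc had changes of 1.99, 2.60 and 1.62 with adjusted p values of 0.205, 0.113 and 0.4, and libraries without a read occurred in both groups. C1qa was called without IVb2 (change 3.09, adjusted p = 0.0184). C1qb was called with array weights and without IIIb3 or IVa5 alone (adjusted p = 0.0291, 0.041 and 0.014). Of 12 eicosanoid genes 2 rose and 5 fell, and 2 and 3 did so without the 3 KO air mice. Hpgds, a prostaglandin D2 synthase, rose by 1.59 ± 0.28 beside Ptgs1, while Ptges, a prostaglandin E2 synthase, fell by 1.86 ± 0.29 and Pla2g7 fell by 1.75 ± 0.43. Of 14 metalloprotease genes Mmp8 and Mmp12 rose and none fell, 14.3% called and so near the 15.5% over all genes. Of 6 protease inhibitors 3 rose and 2 fell, and 2 and 1 did so without those mice. Timp2, which inhibits metalloproteases, rose by 0.69 ± 0.10, and Slpi, an inhibitor of neutrophil elastase, fell by 0.80 ± 0.12.

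Oxidant defence was not uniformly higher. A list of 27 genes held NRF2, the transcription factor of the oxidant response, with its targets and further antioxidant genes. Of these 11 fell and 4 rose (55.6% called, against 15.5% of all genes). Hmox1, heme oxygenase, was at 685, 306, 447, 428 and 449 CPM in air and 208, 189, 236, 242 and 214 CPM in smoke. It fell by 1.05 ± 0.14 without overlap (adjusted p = 2.59e-06). The glutathione enzyme Gclm fell by 0.60 ± 0.14, the transporter Abcc1 fell by 0.76 ± 0.09 and Mgst1 fell by 0.66 ± 0.08. Gstm1, a glutathione transferase, rose by 0.60 ± 0.08, Gsr by 0.39 ± 0.06 and Akr1b8 by 1.41 ± 0.34. Nqo1, a classical target, was low and had a change of -1.66, called with all mice (adjusted p = 0.00783) and not without the 3 KO air mice (adjusted p = 0.117). Of 13 genes of iron and heme 2 rose and 4 fell, and without the 3 KO air mice Hmox1 was the 1 call. Epas1 (HIF-2α), a transcription factor of the hypoxia response, was at 22.9, 33.4, 15.4, 36 and 53.3 CPM in air and 130, 127, 111, 95.9 and 125 CPM in smoke, a change of 1.98 ± 0.22 (adjusted p = 9.68e-08), in a list of 28 glycolysis and hypoxia genes of which 8 rose and 3 fell. Slc2a1, the glucose transporter, rose by 0.87 ± 0.18 and Pgam1 by 0.79 ± 0.19. Without the 3 KO air mice 4 of the 28 rose and 1 fell, and the changes of Slc2a1 and Pgam1 were 0.82 and 0.83.

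Genes that define alveolar macrophages went both ways. Of 42 members 12 rose and 14 fell (61.9% called, against 15.5% of all genes), and 8 and 11 did so without the 3 KO air mice. Car4, a carbonic anhydrase typical of these cells, was at 671, 523, 463, 596 and 519 CPM in air and 1169, 1183, 1150, 1327 and 1050 CPM in smoke, a change of 1.09 ± 0.09 (adjusted p = 6.30e-10). Ear2 fell by 1.35 ± 0.12 and Krt79 fell by 0.95 ± 0.15. Marco, a scavenger receptor, had a change of 0.54, called with all mice (adjusted p = 0.0176) and not without the 3 KO air mice (adjusted p = 0.255) or without IIIb1, IIIb2 or IVa4 alone (adjusted p 0.0548 to 0.07). Runx1 fell by 0.50 ± 0.09. Of 15 integrins and adhesion genes 3 rose and 3 fell, and none rose and 4 fell without the 3 KO air mice. Itgad (CD11d) was at 12.8, 24, 21.7, 23.2 and 14.9 CPM in air and 3.56, 0.657, 0.545, 1.84 and 1.36 CPM in smoke. It fell by 3.82 ± 0.39 (adjusted p = 3.25e-08), Itgal fell by 0.51 ± 0.06 and Itga4 fell by 0.70 ± 0.11. Itgb5, Itgam (CD11b) and Itgb2 rose by 0.31 ± 0.07, 3.33 ± 0.88 and 0.18 ± 0.06, calls lost without those 3 mice (adjusted p = 0.0533, 0.0817 and 0.33), and that for Itgb2 also without IIIb2, IIIb3, IIIb4, IVa2 or IVa5 alone (adjusted p 0.052 to 0.116). The call for Itgam was also lost with voom weights (adjusted p = 0.109) and with log2(CPM + 5), where its change was 0.57 (adjusted p = 0.201). Of the inhibitory and Fc receptors, Siglece fell by 1.30 ± 0.12 and Fcgr1 fell by 0.80 ± 0.14, and Pira2 rose by 1.52 ± 0.21.

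Markers of other lung cells were measured in part, since the table lacks many of them. Of 11 monocyte and interstitial macrophage markers, none rose and Cd14 and Ccr2 fell (18.2% called, near the 15.5% over all genes). Their summed level was 112 to 148 CPM in air and 80.5 to 102 in smoke. Of the neutrophil markers S100a9 had no read in air and 4 in smoke, whereas S100a8, Cxcr2 and Mmp8 rose and Csf3r fell, and the summed level of 6 markers was 86.8 to 136 CPM in air and 140 to 314 in smoke. S100a8 rose by 1.62 ± 0.33 (adjusted p = 0.000748), from 147 to 432 reads. Which cells gave the reads of Mmp8, Cxcr2 and S100a8 was not tested. The 2 measured eosinophil genes, Ear6 and Siglece, moved in opposite directions, with sums of 71.2 to 123 and 119 to 161 CPM. Of 8 dendritic cell markers Cd24a rose by 0.57 ± 0.11 and Flt3 had a change of 2.98 (adjusted p = 0.0179) that was not called without the 3 KO air mice (adjusted p = 0.325) or without IVa5 (adjusted p = 0.0558), with sums of 139 to 190 and 207 to 238 CPM. The T and NK cell list summed to 0 to 2.03 and 0.642 to 7.25 CPM, and Il7r, from 27 to 182 reads, was called with all mice (adjusted p = 0.0018; 0.169 without the 3 KO air mice). The 1 measured B cell gene, Ighm, had 3 and 6 reads. Of 10 epithelial markers Epcam, Krt19 and Napsa fell and Cdh1 rose, and without the 3 KO air mice Epcam was the 1 call. Krt19 was also lost without IIIa5, IIIb1, IIIb2, IIIb4, IVa2, IVa4, IVb2 or IVb4 alone (adjusted p 0.0503 to 0.116). They summed to 804 to 977 CPM in air and 718 to 828 in smoke, most of it Krt19, while surfactant gene Sftpc had 21 and 22 reads. Of 3 endothelial and stromal markers Vwf rose by 0.85 ± 0.08 (adjusted p = 7.86e-09), and Kdr had 2 reads in each group. The 3 summed to 167 to 221 CPM in air and 293 to 367 in smoke, and which cells gave these reads was not tested.

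Few genes were called in several housekeeping groups. Of 80 nuclear genes of the respiratory chain 3 rose and 1 fell, of 31 proteasome subunits 4 rose, of 20 cytosolic tRNA synthetases 1 rose, of 19 chaperones and effectors of the unfolded protein response 1, Xbp1, fell by 0.49 ± 0.07, and of 14 heat shock genes 1 fell, with a list median of -0.25. The heat shock count turned without IIIa5, to 2 higher and none lower, and after median centring none was called. Of 79 cytosolic ribosomal proteins 9 fell and 2 rose, and 3 and none did so without the 3 KO air mice. The percent called in each of these 6 lists lies below 15.5%, that over all genes. A list of 19 genes held ATF4, the factor of the integrated stress response, and its targets. Of these 5 rose and 2 fell (3 and 1 without the 3 KO air mice), with Trib3 (1.52 ± 0.31) and Psat1 (0.54 ± 0.12) among those that rose. Of 21 autophagy genes 2 rose and 1 fell, 14.3% and so near the share over all genes. The receptor Optn rose by 0.82 ± 0.12 and Sqstm1 (p62) fell by 0.35 ± 0.06.

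Reported targets of miR-155 changed in both directions in cells labelled as lacking it. Of 32 measured targets 4 rose and 5 fell, 28.1% against 15.5% of all genes, and 3 and 3 did so without the 3 KO air mice. Their median change was -0.09. Trp53inp1, a stress-induced autophagy gene, was at 39.7, 24.7, 51.2, 24.1 and 34.2 CPM in air and 45.3, 73.6, 42.5, 73.9 and 68.3 CPM in smoke. The groups overlapped at IIIb2, and the change was 0.82 ± 0.19 (adjusted p = 0.00213). Cux1 rose by 0.28 ± 0.07, Picalm fell by 0.33 ± 0.07 and Ikbke fell by 1.06 ± 0.25. Socs1 was near absent, with 16 reads in air and 10 in smoke, and Inpp5d (SHIP1) had a change of 0.00 (adjusted p = 0.989). Of 13 genes for making and using microRNAs none rose and 2 fell, 15.4% and so near the share over all genes. These, Dicer1 and Tnrc6b, had changes of -0.27 and -0.34, neither called without the 3 KO air mice (adjusted p = 0.184 and 0.145). Dicer1 was also lost without IIIb2, IIIb4, IVa2 or IVa5 alone (adjusted p 0.0585 to 0.0933), and Tnrc6b without IIIb2, IIIb4, IVa2 or IVa5 alone (adjusted p 0.059 to 0.0908).

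The response was set beside that of wild type mice, which shares no mouse with it. In WT 2968 genes were called (22.4%), and 1385 genes were called in both genotypes, which is 67.5% of the knockout calls and 46.7% of the WT calls. All but 2 of these, 1383, changed in the same direction. The exceptions were Sh3bgrl3 (-0.22 in KO, 0.23 in WT) and Prss27 (-2.66 and 3.56), a gene of few reads. Neither was called in KO without the 3 KO air mice (adjusted p = 0.741 and 0.653). Sh3bgrl3 was also lost without IIIb3, IIIb4, IVa2, IVb2 or IVb4 alone (adjusted p 0.0569 to 0.102), and Prss27 without IIIb2, IIIb3, IIIb4, IVa2, IVa4 or IVa5 alone (adjusted p 0.0797 to 0.12). Of the 666 genes called in KO and not in WT, 569 had the same sign in WT. Over 8900 genes whose mean log2 CPM was 3 or more in the knockout the changes of the 2 genotypes correlated with r = 0.79 across genes, which are not independent replicates.

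**Figure D5:**
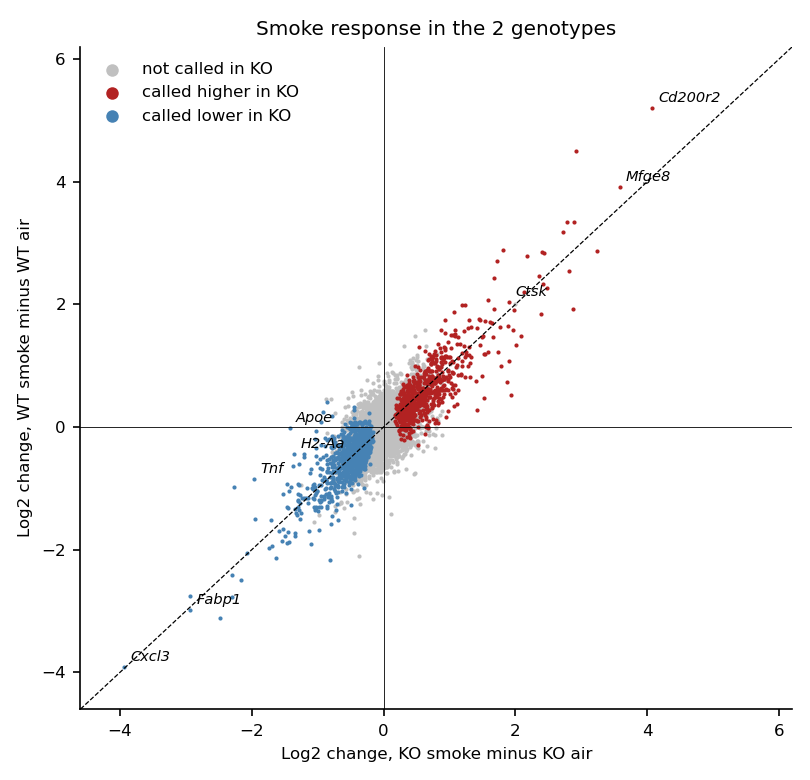
Log2 change with smoke in the knockout (horizontal axis) against that in wild type (vertical axis) for 8900 genes whose mean log2 CPM was 3 or more, coloured where called in the knockout, with the line of equal change. Most genes called in the knockout lie near that line, and Apoe and Tnf lie left of it, with changes of -1.42 and -1.96 in the knockout beside -0.01 and -0.85 in wild type, differences that were not called.

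The test of the difference between the genotypes' responses called no gene (0.0%), with limma on the deposited values and also with voom weights on the recovered reads. The smallest adjusted p was 0.0513, and 1302 genes had an unadjusted p under 0.05, among them 355 of the genes called in the knockout. The count depends on 2 air mice, being 19 without IIIa5 and 10 without IIIb1, and was 1 without IVa2. It was 6 with log2(CPM + 5), and at most 4 in every other setting tried. None of the values that follow is therefore a called difference, and a p that misses the threshold does not show that the genotypes respond alike. Apoe changed by -1.42 ± 0.24 in KO and -0.01 ± 0.24 in WT, a difference of -1.41 ± 0.35 (adjusted p = 0.16). Il1rn changed by -0.52 in KO and -0.02 in WT, a difference of -0.50 ± 0.11 (adjusted p = 0.0897). Tnf changed by -1.96 and -0.85 (difference -1.12 ± 0.29, adjusted p = 0.17), and Rragd by 4.32 and 0.62 (difference 3.70 ± 1.02, adjusted p = 0.225). For H2-Aa the values were -1.35 and -0.43 (difference -0.92 ± 0.34, adjusted p = 0.344), and for Hmgcs1 0.40 and -0.02 (difference 0.42 ± 0.14, adjusted p = 0.303). In the other direction, Mmp12 rose by 2.91 in KO and 4.50 in WT (difference -1.58 ± 0.54, adjusted p = 0.311), and the respiratory chain list had 3 genes higher and 1 lower in KO beside 32 and 2 in WT, with no called difference among its 80 genes. The proteasome list had 4 higher in KO and 19 in WT, again without a called difference.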

How the data were processed

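RNA of sorted alveolar macrophages was prepared with the miRNeasy Mini kit, and 25 ng went into polyA-selected TruSeq libraries, per the labels' protocols. STAR 2.6.0c, limma and build GRCm38.p6 are named in the submitters' processing notes. The sources used here do not give how reads were counted (tool, strand, annotation) or which low counts were dropped. The authors deposited log2 CPM values of 20 libraries and 13225 genes, log2 of reads per 1000000 reads, with 0.5 added to the reads and 1 to the total. All values gave whole reads within 0.001, from which CPM were computed. The fewest reads a gene had over all 20 libraries was 14.

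Groups came from the sample labels. A model with 1 mean per group was fitted to the deposited values of all 20 libraries with limma 3.58.1 (R 4.3.3; empirical Bayes with mean trend), and p-values were adjusted by Benjamini-Hochberg over 13225 genes, with calls at 0.05. Folds are 2 to the power of the log2 change. Nothing in the sources pairs mice, and that replicates are separate mice rests on their codes, so p-values measure the spread between these libraries. Counting intervals (95%, exact binomial) and the floor of 3 reads cover counting error only. Alternatives were other weights, scalings, pseudocounts, filters and left-out libraries. Promoters were read from RefSeq tables. Python 3.11.15, pandas 2.3.3 and matplotlib 3.10.9 were used.

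The comparison, lists and tests were chosen with earlier results of these data known. Named genes were the 12 largest increases and decreases among called genes whose groups were apart and whose mean log2 CPM was 5 or more in a knockout group, per list up to 6 called members (by p) and 2 uncalled members (by level), 6 genes with at most 3 reads in air, and Mir155hg. Markers of the labelled cell type came from a separate list. Acadvl, Acp5, Akr1b8, C1qa, C1qb, C1qc, C3ar1, Ccl2, Ccnd2, Cdc20, Cdk1, Cdkn2d, Cln3, Csf1, Ctsa, Ctsb, Ctsd, Ctsl, Ech1, Gclm, Gla, Hadha, Hmgcs1, Igf1, Il1b, Inpp5d, Krt79, Laptm4a, Mcoln1, Npc2, Nqo1, Pla2g15, Plin2, Prss27, Rrm1, Rrm2, Runx1, Sh3bgrl3, Smpd1, Tfeb, Top2a and Ube2c were named after their values had been seen.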

Additional observations from a re-analysis of the deposited data

Results flagged for a closer look

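In groups of 5 mice, 10 of 192 sets of values had 1 mouse whose gap to the nearest other mouse exceeded 0.71 of the group's range, and chance flags about 1 in 20 such groups. Among KO air mice, IIIb2 had the lowest Cd200r2 level (log2 CPM -0.43, others 1.64 to 2.11), and IIIb1 the lowest Birc5 level (4.19, others 4.73 to 4.81). IIIa5 had the highest summed level of interferon-stimulated genes (586 CPM, others 478 to 501), IIIb3 that of nuclear respiratory chain genes (7433 CPM, others 6273 to 6603), and IIIb1 was the 1 mouse with reads of the B cell gene Ighm (0.291 CPM). Among KO smoke mice, IVa5 had the highest Acaa1b level (log2 CPM 5.54, others 4.54 to 4.66), the highest summed level of inflammasome genes (1684 CPM, others 1311 to 1413) and the highest of epithelial markers (828 CPM, others 718 to 741). IVb2 had the highest Atp6v0d2 level (log2 CPM 11.03, others 10.96 to 10.98), and IVa2 the highest Ighm level (0.574 CPM, others 0 to 0.113). For Birc5 and Atp6v0d2 the smoke and air groups did not overlap. Cd200r2 and Acaa1b had been chosen among genes whose groups were apart, so the lack of overlap there was fixed in advance.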

How the results depend on the processing

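Of 200 called genes named here, 169 were called without the 3 KO air mice, 180 in each of 10 fits that left out 1 library, and 165 in all 23 alternatives that gave a value, and none changed sign. The count of 2051 called genes fell to 1220 (612 higher, 608 lower) without the 3 KO air mice, ranged from 1712 to 2188 (784 to 1046 higher, 908 to 1142 lower) with 1 library left out, and from 1507 to 2101 in the other settings. The genotype difference, 0 genes in the reported fit, was called in 0 to 19 genes with 1 library left out, in 1 with array weights, 4 with log2(CPM + 1), 6 with log2(CPM + 5), 2 and 4 with a minimum mean log2 CPM of 1 and 3, 2 with median centring, 3 without the mean trend, 3 with quantile normalization and 2 with the robust prior, and the cause was not tested. Uncalled genes changed sign: Chil3 (-0.24) and Mrc1 (0.01) under quantile normalization, Itgax (-0.01) and Pparg (0.18) without the 3 KO air mice, Pparg and Mir155hg (0.04 each) with array weights, and Inpp5d (-0.01) with the letter of the mouse code as a covariate. With 1 library left out, Inpp5d ranged from -0.04 to 0.03, Mir155hg from -1.01 to 0.37 and Pparg from -0.2 to 0.03. No paired analysis was possible because each mouse code occurs in 1 group only. Depth limits genes of few reads: 3 reads were 0.251 to 0.436 CPM.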

Other observations

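Of 12 genes of serine and one-carbon metabolism 5 rose and none fell (41.7% called, against 15.5% of all genes), among them Psph, the last enzyme of serine synthesis, and Mthfd1, which interconverts folates, and 2 of the 12 rose without the 3 KO air mice. Other metabolic lists had shares below that of all genes. Of 16 enzymes of the TCA cycle 1, Idh3b, rose (6.2%), of 77 mitochondrial ribosomal proteins 1 rose and 3 fell (5.2%), and of 7 mitochondrially encoded mRNAs 1, mt-Nd4, fell (14.3%). The calls for Psph, Mthfd1, Idh3b and mt-Nd4 were lost without the 3 KO air mice (adjusted p = 0.28, 0.198, 0.0955 and 0.453). Of 13 genes of alternative activation, Clec7a rose and Tgm2, a protein-crosslinking enzyme, fell (15.4%, near the share over all genes), while Chil3 and Mrc1 were not called.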
